A study of Mus musculus with 6 samples.

Results

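The genes described here are 10 members of the Jak, Stat and Socs signalling pathway: the kinases Jak1, Jak2 and Jak3, the transcription factors Stat3, Stat5a and Stat5b, the feedback inhibitors Socs2, Socs3 and Cish, and the kinase gene Pim1. They were taken by gene symbol from a table of 55471 gene IDs, by a rule that uses no measured value, although the set was drawn up with earlier results of these data known. Each of the 10 symbols matched 1 row and 1 ID. The table holds total RNA sequencing of haematopoietic stem cells from mice carrying ETV6-RUNX1, the gene fusion of a childhood B-cell precursor leukaemia, placed under doxycycline control. The sort kept CD150-positive, CD48-negative cells that carried Kit and Sca1 and no lineage markers. The uninduced group (n = 3) had no doxycycline, and the induced group (n = 3) ate doxycycline food for 2 weeks; the genotype label, ETV6-RUNX1, is the same for both. Because doxycycline-fed mice lacking the fusion were not analysed here, the effects of the drug and of the fusion cannot be told apart. The labels used here do not state the driver of the transgene, the age of the mice, or whether a library came from 1 animal or several. P-values therefore measure the spread between these libraries.

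Cytokine receptors of blood cells have no kinase activity of their own and are bound inside the cell by Jak kinases. A cytokine brings the receptor chains together, the Jaks phosphorylate one another and the receptor, and Stat proteins dock there, are phosphorylated, pair up and move to the nucleus. Stat5 and Stat3 then switch on, among others, Cish, Socs2, Socs3 and Pim1. The Socs proteins and Cish shut the pathway off again, while Pim1 supports growth and survival. In stem cells signalling through Jak2 and Stat5 is known for maintaining the cells.

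All values are TPM, a share of each library's transcripts corrected for gene length, so levels of different genes can be set side by side. TPM keep no read depth, so no counting interval can be given. Tests were made with limma on log2(TPM + 1) over the 13470 genes that averaged 1 TPM or more, and a gene was called at a Benjamini-Hochberg adjusted p under 0.05. The median tested gene was lower in induced libraries by 0.35 on the log2 scale, and 27.5% of tested genes lay above 0. Each change is therefore given on the deposited scale and after median-of-ratios scaling, which divides each library by its median ratio to the average library and brought the median change to -0.0029. The divisors were 1.06 to 1.27 in uninduced and 0.829 to 0.947 in induced libraries.

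The sorted cells had the defining markers of their label: the 11 stem cell markers were all above the minimum, with summed levels of 596 to 792 TPM in uninduced and 728 to 817 TPM in induced libraries. These sums cover opposite changes: on deposited values 4 were called higher (Ly6a, which encodes Sca1, Procr, Hlf and Mllt3) and 2 lower (Kit, on average 172 against 95.7 TPM, limma adjusted p 0.0354, and Ctnnal1), and after scaling 5 higher and 0 lower. Slamf1, which encodes CD150, was at 13.2, 15.5 and 10.6 TPM in uninduced and at 5.98, 5.31 and 11.3 TPM in induced libraries. It was called on neither scale (limma adjusted p 0.155 and 0.463). Cd48, negative in the sort, was between 0 and 3.02 TPM. Of 6 B cell markers, 5 were listed at 0 in all libraries, as were 3 of 6 T and NK cell markers. The NK and T cell marker Nkg7 was at 6.21, 15.8 and 5.84 TPM in uninduced libraries and listed at 0 in the induced ones, and was called lower on both scales (limma adjusted p 0.00378 and 0.00587). Lck, of the same list, was at 5.72, 14.5 and 2.38 TPM in uninduced and at 0.348, 6.69 and 3.85 TPM in induced libraries. Its groups overlapped and it was called on neither scale. Klrb1c did not exceed 0.775 TPM, was above 0 in every induced library and was not tested. The 7 erythroid markers summed to 50.01 to 57.2 TPM in uninduced and 402 to 465 TPM in induced libraries, with 6 called higher and 0 lower on both scales and none at 0 throughout. Ranges were 81.7 to 114 against 105 to 114 TPM for 5 megakaryocyte markers (2 called higher and 1 lower on deposited values) and 218 to 266 against 187 to 241 TPM for 9 myeloid markers (5 tested; 0 called by limma on deposited values, 1 higher and 3 lower at an unadjusted p under 0.05, median log2 change -0.67; after scaling 1, Lyz2, was called higher, limma adjusted p 0.0136). The proliferation markers Mki67 and Top2a summed to 106 to 118 against 12.7 to 18.3 TPM. In bulk libraries fewer cells of a type and less RNA per cell cannot be told apart, and the part of any of these differences in the results below was not tested.

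Of the 10 members, all of which were tested, 1 was called on the deposited scale: Socs2, higher in induced cells. With direction ignored this is close to the background, since 11.5% of all tested genes were called. By direction, 1.29% of all tested genes were called higher and 10.2% lower. At an unadjusted limma p under 0.05, Socs2, Socs3 and Pim1 were higher and 0 members lower; 27.9% of all tested genes passed that limit, 3.73% higher and 24.2% lower. On the scaled values 4 members were called, Socs2, Socs3, Pim1 and Jak1, all higher, where 6.04% of all tested genes were called, 2.84% higher and 3.21% lower. The median log2 change over the 10 members was 0.26 on the deposited scale, where that of all tested genes was -0.35, and 9 members lay above the median gene. Groups did not overlap for 4 members on the deposited scale, Jak1, Socs2 and Socs3 higher and Stat5a lower, against 33.1% of all tested genes. On the scaled values 8 members did not overlap, all higher in induced cells, against 27.9% of all tested genes; the exceptions were Jak2 and Stat5a. The number of calls moved with single libraries. With 1 library left out, 0 members were called on the deposited scale, except without uninduced replicate 3 (Socs2). On the scaled one 3 were called without uninduced replicate 2 (Socs2, Jak1 and Pim1), 1 without uninduced replicate 3 (Socs2) and 0 without any of the others.

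**Figure D1:**
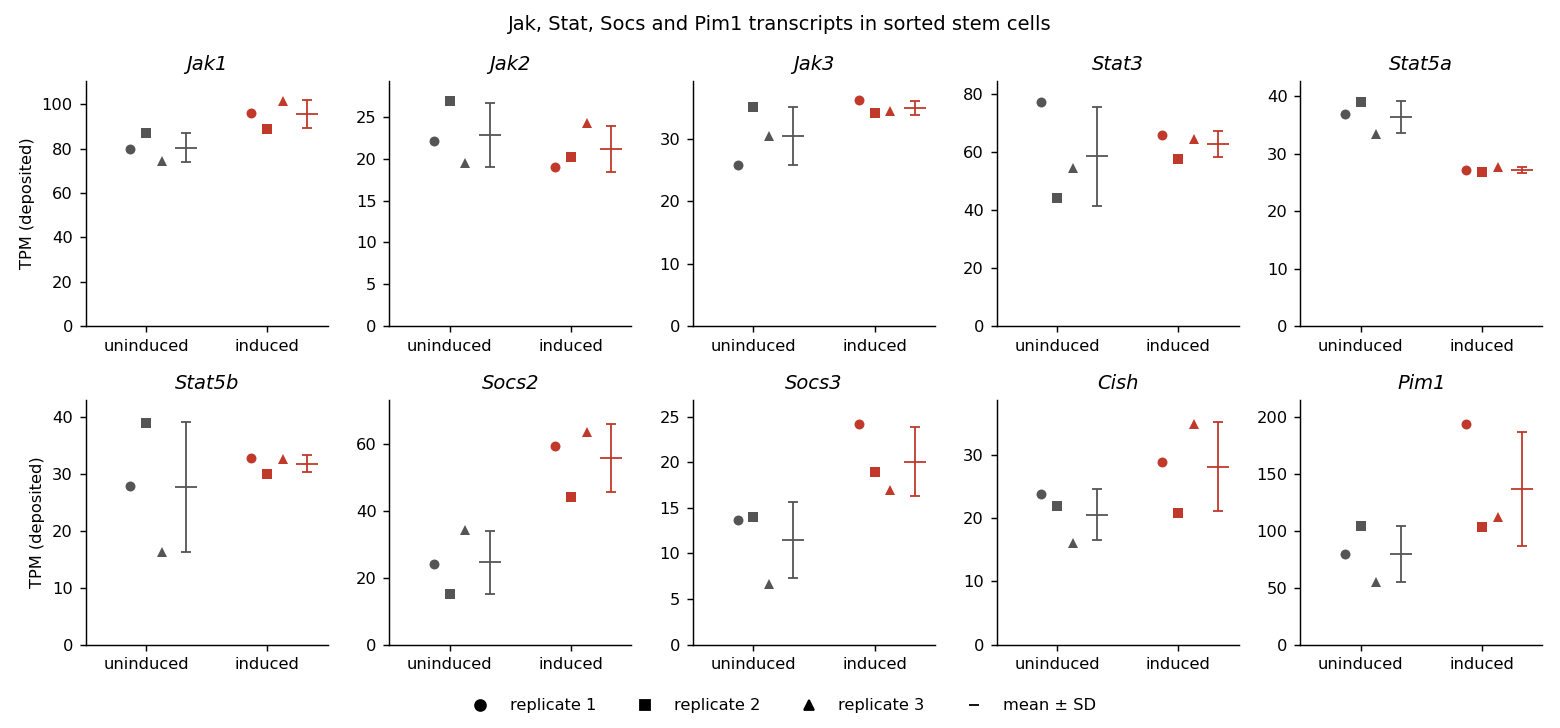
Deposited TPM (vertical axes, each from 0) of the 10 members in each library, grey for uninduced and red for induced, with the replicate given by the marker shape and the mean ± SD (n = 3) beside the points. Socs2 lies between 15.3 and 34.3 TPM in uninduced and between 44.3 and 63.7 TPM in induced libraries, while Stat5a is the member whose induced libraries all lie below the uninduced ones.

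Of the members, the feedback inhibitors Socs2 and Socs3 had the largest changes on both scales. Socs2 (ENSMUSG00000020027, GRCm38 chromosome 10, 95385362 to 95417180, minus strand) encodes an inhibitor best known for restraining growth hormone signalling and is a target of Stat5. The uninduced libraries held 24.3, 15.3 and 34.3 TPM, and the induced ones 59.5, 44.3 and 63.7 TPM. Every induced library was above every uninduced one, although uninduced replicates 2 and 3 were more than 2-fold apart. Socs2 rose 2.27-fold between group means; on the log2 scale it rose by 1.20 (SE 0.29, limma adjusted p 0.0277), or by 1.59 after scaling (SE 0.31, limma adjusted p 0.0211). The call was lost on the deposited scale when any library except uninduced replicate 3 was left out (limma adjusted p 0.0564 to 0.0887), without the expression minimum (0.104) and without a variance trend (0.0797). On the scaled values it was kept without uninduced replicate 2 or 3, and the adjusted p over the 6 omissions was 0.0133 to 0.0753. Of the 50-base stretches of Socs2 transcripts, 4.19% also stand in the processed pseudogene Gm9847, which was at 0.503 to 0.542 TPM in uninduced and at 0.421, 1.94 and 4.96 TPM in induced libraries.

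Socs3 (ENSMUSG00000053113, GRCm38 chromosome 11, 117966079 to 117970047, minus strand) encodes the inhibitor that acts on Jaks bound to gp130 and the G-CSF receptor. The sequence before its RefSeq start is shown because it was the 1 member promoter searched with a match to TTCNNNGAA, the core of the gamma-activated sequence bound by Stat dimers. The motif reads the same on both strands and was searched in the 250 bases before each start in RefSeq's GRCm38.p6 promoters. Of 12 such windows covering 9 members, all but Socs2, 1 held a match, and 7.02% of all 32851 windows did. The gene span above is that of all 3 GENCODE transcripts, and the window lies inside it: its near end is 181 bases upstream of the protein-coding transcript (117966079 to 117969186), it falls in an intron of a longer non-coding transcript, and 77 of its bases are in an exon of another. The match begins 154 bases before the RefSeq start, outside all of these exons, and is in capitals; it describes the letters only and no binding was measured.
Socs3 promoter, chr11:117969367-117969616, minus strand: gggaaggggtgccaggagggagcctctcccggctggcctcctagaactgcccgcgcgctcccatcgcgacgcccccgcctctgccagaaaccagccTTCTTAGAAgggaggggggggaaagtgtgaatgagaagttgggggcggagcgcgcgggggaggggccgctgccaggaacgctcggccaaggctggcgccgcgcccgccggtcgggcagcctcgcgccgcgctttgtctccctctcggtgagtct

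Socs3 was at 13.6, 14.0 and 6.66 TPM in uninduced and at 24.2, 18.9 and 16.9 TPM in induced libraries. The groups did not overlap, and the lowest uninduced library was replicate 3. The deposited-scale log2 change was 0.81 (SE 0.31, limma adjusted p 0.128, not called), and 0.49 without uninduced replicate 3. After scaling it rose by 1.18 (SE 0.28, limma adjusted p 0.0445), a call that no omission of 1 library kept (limma adjusted p 0.0648 to 0.140).

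Cish (ENSMUSG00000032578, GRCm38 chromosome 9, 107296026 to 107302784, plus strand), which encodes the founding inhibitor of the family and is a direct Stat5 target, was at 23.9, 21.9 and 16.0 TPM in uninduced and at 28.9, 20.8 and 35.0 TPM in induced libraries. Induced replicate 2 lay within the uninduced range. The log2 change was 0.42 (95% interval -0.16 to 1.00, limma adjusted p 0.323) and 0.81 after scaling (0.32 to 1.29, limma adjusted p 0.0626), so Cish was called on neither scale. The deposited-scale change was 0.26 without uninduced replicate 3, and also without induced replicate 3. Genes on the opposite strand at its locus, the processed pseudogene Gm17040 and the antisense gene Gm17041, were listed at 0 in 5 of 6 libraries each and reached 0.0722 and 1.75 TPM in the other.

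Pim1 (ENSMUSG00000024014, GRCm38 chromosome 17, 29490753 to 29496112, plus strand) encodes a serine and threonine kinase made in response to cytokines. It was at 79.4, 104 and 54.4 TPM in uninduced and at 194, 103 and 112 TPM in induced libraries. Induced replicate 1 stood well above the other libraries, and induced replicate 2 fell just below uninduced replicate 2. The deposited-scale change was 0.76 (SE 0.29, limma adjusted p 0.116, not called), and 0.48 without induced replicate 1. After scaling Pim1 rose by 1.16 (SE 0.26, limma adjusted p 0.0331), with groups of 51.3 to 82.1 and 118 to 217 scaled TPM that no longer overlapped. Over the omissions of 1 library on the scaled values the adjusted p was 0.0434 to 0.101, with the call kept only without uninduced replicate 2. The antisense gene Gm26885 at this locus did not exceed 0.221 TPM.

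**Figure D2:**
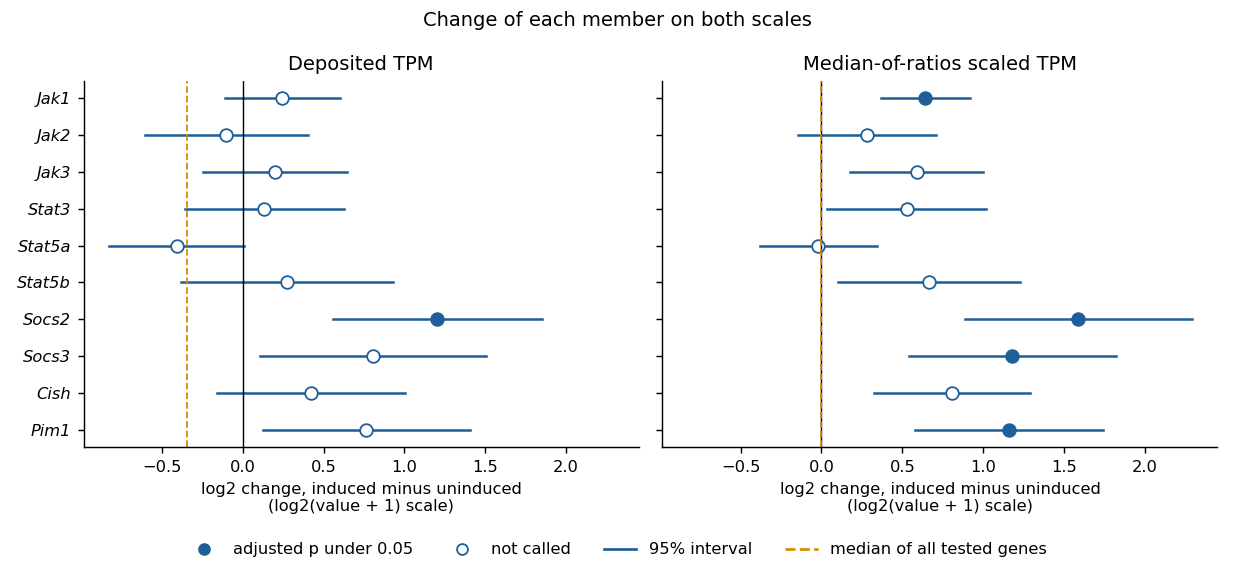
Log2 change of each member, induced minus uninduced, with its 95% interval from limma (horizontal axes), on deposited TPM (left) and after median-of-ratios scaling (right); filled points were called and the dashed line is the median of all tested genes. Socs2 is filled in both panels, at 1.20 and 1.59, and Jak1, Socs3 and Pim1 only in the right one.

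Among the 3 Jak genes, Jak1 was the most abundant. Jak1 (ENSMUSG00000028530, GRCm38 chromosome 4, 101152367 to 101265282, minus strand) serves interferon, gp130 and common gamma chain receptors. It was at 80.0, 87.3 and 74.3 TPM in uninduced and at 96.1, 89.0 and 102 TPM in induced libraries. The groups did not overlap, by a margin of under 2 TPM between uninduced replicate 2 and induced replicate 2. The deposited-scale change was 0.25 (SE 0.16, limma adjusted p 0.350, not called). On the scaled values the libraries of a group lay close together, at 66.6 to 70.1 and 107 to 108 scaled TPM. Jak1 rose there by 0.64 (SE 0.12, limma adjusted p 0.0191), and with 1 library left out the adjusted p was 0.0456 to 0.0722, with the call kept only without uninduced replicate 2.

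Jak2 (ENSMUSG00000024789, GRCm38 chromosome 19, 29251828 to 29313080, plus strand), the kinase of the erythropoietin receptor, was at 22.1, 27.0 and 19.5 TPM in uninduced and at 19.0, 20.2 and 24.3 TPM in induced libraries. The groups overlapped on both scales. Its change turned sign with the scaling, from -0.10 (95% interval -0.61 to 0.40, limma adjusted p 0.806) to 0.28 (-0.14 to 0.71, limma adjusted p 0.440). On the deposited scale it was -0.21 without uninduced replicate 3 and 0.019 without uninduced replicate 2. Jak3 (ENSMUSG00000031805, GRCm38 chromosome 8, 71676296 to 71690575, plus strand), the partner of the common gamma chain Il2rg in lymphoid cells, was at 25.8, 35.2 and 30.5 TPM in uninduced and at 36.2, 34.2 and 34.5 TPM in induced libraries. The deposited groups overlapped through uninduced replicate 2. The changes of 0.20 (95% interval -0.24 to 0.64, limma adjusted p 0.551) and 0.59 after scaling (0.18 to 1.00, limma adjusted p 0.0980) were not called, and the first was 0.089 without uninduced replicate 1 and 0.31 without uninduced replicate 2. Jak3 overlaps Insl3 on the same strand over 1362 bases, and 6.53% of its 50-base stretches stand in Insl3, which was between 0.0236 and 1.69 TPM.

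The 3 Stat genes lie side by side on GRCm38 chromosome 11: Stat5b (ENSMUSG00000020919, 100780731 to 100850724, minus strand), Stat5a (ENSMUSG00000004043, 100859351 to 100885169, plus strand) and Stat3 (ENSMUSG00000004040, 100885098 to 100939540, minus strand). Stat5a and Stat3 share 72 bases at their facing ends, where reads can be told apart only by strand, and strand use in counting is not given in the sources used here. Stat5b lies 8626 bases from Stat5a. Stat5a and Stat5b encode near-identical proteins that carry the signal of interleukin 3 and many other cytokines. Their coding sequences share an exact run of 324 bases, at positions 571 to 894 of both. Its first 100 bases, the length of 1 read, are shown from the GENCODE M21 transcripts because a read inside the run could come from either gene; no base differs, so none is capitalised.
Stat5a and Stat5b, shared coding run: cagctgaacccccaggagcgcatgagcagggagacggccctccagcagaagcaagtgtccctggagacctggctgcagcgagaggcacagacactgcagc

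Of all 50-base stretches, 8.21% of those of Stat5a also stand in Stat5b and 11.0% of those of Stat5b in Stat5a, so the split between the 2 genes is uncertain to the extent that reads from there were assigned. Stat5a was at 36.9, 38.9 and 33.4 TPM in uninduced and at 27.1, 26.7 and 27.6 TPM in induced libraries. All induced libraries were lower on the deposited scale, where the change was -0.41 (95% interval -0.83 to 0.01, limma adjusted p 0.189), near that of the median gene. After scaling the groups overlapped, at 30.7 to 31.5 and 29.2 to 32.2 scaled TPM, and the change was -0.02 (-0.38 to 0.34, limma adjusted p 0.963). Stat5a was thus called on neither scale, and its sign turned to 0.017 after rescaling to nuclear protein-coding genes.

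Stat5b was at 27.8, 39.0 and 16.2 TPM in uninduced and at 32.7, 30.0 and 32.5 TPM in induced libraries. The uninduced libraries spanned more than 2-fold and enclosed the induced ones. Its change of 0.28 (95% interval -0.38 to 0.93, limma adjusted p 0.582), or 0.66 after scaling (0.10 to 1.23, limma adjusted p 0.162), was not called. On the deposited scale it was -0.052 without uninduced replicate 3 and 0.56 without uninduced replicate 2. Stat3, which serves gp130 and G-CSF signalling, was at 77.2, 44.1 and 54.4 TPM in uninduced and at 66.0, 57.7 and 64.6 TPM in induced libraries. Here too the uninduced libraries enclosed the induced ones. The change of 0.13 (95% interval -0.36 to 0.63, limma adjusted p 0.736), or 0.53 after scaling (0.04 to 1.02, limma adjusted p 0.198), was not called. On the deposited scale it was -0.049 without uninduced replicate 2 and 0.35 without uninduced replicate 1.

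Shares within a family do not depend on how a library is scaled. They were added after the values had been seen. Each of the 9 was tested by exact permutation (two-sided), where the smallest p that 6 libraries allow is 0.1. Jak2 made up 17.3%, 18.0% and 15.7% of the summed Jak1, Jak2 and Jak3 TPM in uninduced and 12.5%, 14.1% and 15.1% in induced libraries. Its share was lower in every induced library (exact permutation p 0.1, adjusted p 0.45 over 9 shares). Stat5a made up 26.0%, 31.9% and 32.1% of the summed Stat3, Stat5a and Stat5b TPM in uninduced and 21.6%, 23.4% and 22.1% in induced libraries. This share also did not overlap (exact permutation p 0.1, adjusted p 0.45). Socs2 took 39.3%, 29.8% and 60.2% of the summed Socs2, Socs3 and Cish TPM in uninduced and 52.9%, 52.7% and 55.1% in induced libraries, so the groups overlapped through uninduced replicate 3 (exact permutation p 0.4, adjusted p 0.6). The other 6 shares overlapped as well, and no share could pass a threshold of 0.05.

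**Figure D3:**
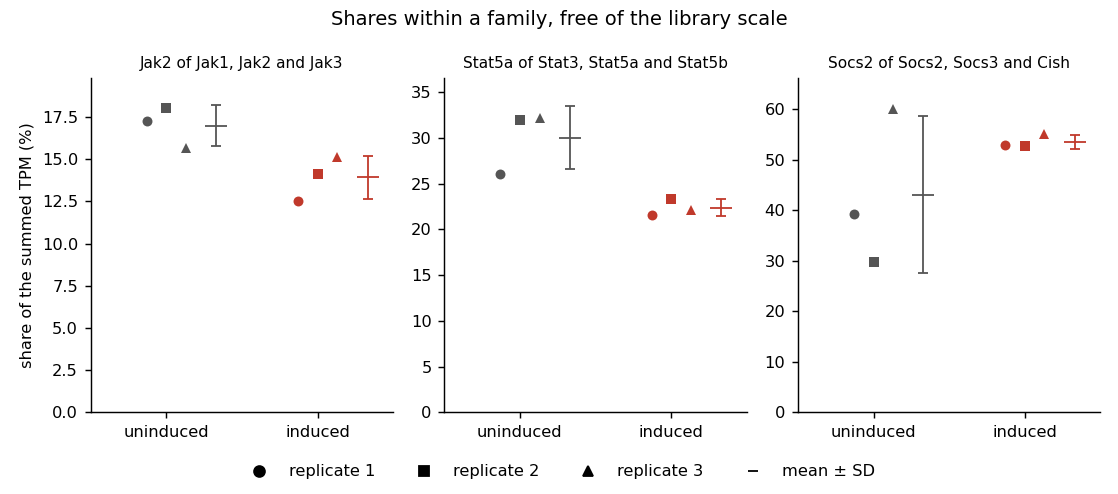
Share of the summed TPM of 3 related genes taken by Jak2, Stat5a and Socs2 (vertical axes in percent, each from 0) in each library, with the mean ± SD (n = 3) beside the points. The Jak2 and Stat5a shares are lower in every induced library, while the uninduced Socs2 shares, 29.8% to 60.2%, span the induced ones.

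The members were well expressed in both groups, between the 69.1st and 99.5th percentile of nuclear protein-coding genes over all libraries. In uninduced cells the mean levels fell in the order Jak1 (80.5 TPM), Pim1 (79.2 TPM), Stat3, Stat5a, Jak3, Stat5b, Socs2, Jak2, Cish (20.6 TPM) and Socs3 (11.4 TPM). Only Stat3 and Stat5a, and Cish and Socs3, were neighbours whose ranges did not overlap. In induced cells Pim1 (136 TPM) came before Jak1 (95.6 TPM), and Socs2 (55.8 TPM) followed directly on Stat3 (62.7 TPM), with which its range overlapped. Jak3 (35.0 TPM) came next, apart from its neighbours on both sides. Cish (28.2 TPM) overlapped both Stat5b (31.8 TPM) and Stat5a (27.2 TPM), which did not overlap each other. The range of Jak2 (21.2 TPM) overlapped that of Socs3 (20.0 TPM), and Socs3 had the lowest mean in both groups.

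The other genes of the pathway were read from the same fit, from 5 lists of 85 genes in all, of which 71 were tested. Deposited values gave 1 gene called higher and 11 called lower, where 1.29% of all tested genes were called higher and 10.2% lower. Scaled values gave 9 and 6, where 2.84% of all tested genes were called higher and 3.21% lower. The remaining 5 Jak and Stat genes were all tested, with a median log2 change of 0.22 against -0.35 for all genes. Limma called 0 on the deposited scale (1 at an unadjusted p under 0.05). After scaling 1 of 5 was called: Tyk2, the kinase of interferon and interleukin 12 receptors, had means of 7.37 ± 1.32 and 13.1 ± 2.88 deposited TPM (SD, n = 3) and rose by 1.10 on the scaled values (limma adjusted p 0.0488; deposited 0.75, adjusted p 0.122). Of 15 other inhibitors, all tested and with a median change of -0.19, 1 was called on each scale. Pias2, a SUMO ligase of the Stat inhibitor family, averaged 10.8 ± 1.82 TPM in uninduced and 3.94 ± 0.734 TPM in induced libraries (SD, n = 3). It fell by 1.25 on the deposited scale (limma adjusted p 0.0273) and was not called after scaling (-0.91, adjusted p 0.108). Ptprc, the phosphatase CD45, was called after scaling only (0.71, limma adjusted p 0.0361; deposited 0.32, adjusted p 0.295). With 1 library left out, the scaled calls of Tyk2 (limma adjusted p 0.0586 to 0.147) and Ptprc (up to 0.128) were lost each time, and that of Pias2 on deposited values was kept only without uninduced replicate 3 (up to 0.0905 otherwise). Socs1, a close relative of Socs3, stayed at 0.375 to 2.14 TPM and was not called.

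Of 35 Jak-coupled cytokine receptor genes 24 were tested, and 7 were listed at 0 in all libraries, among them Il7r, Il2ra and Prlr. Their median change was -0.14. On the deposited scale limma called 0 receptors higher and 1 lower (5 higher and 5 lower at an unadjusted p under 0.05). After scaling 5 receptors were called higher and 1 lower, the latter being the same gene on both scales. Il10rb, a chain of the interleukin 10 receptor, changed by 1.34 (limma adjusted p 0.0235), and Csf2rb, the shared chain for interleukin 3 and GM-CSF, by 1.22 (limma adjusted p 0.0413). Crlf2, the thymic stromal lymphopoietin receptor, changed by 1.14 (limma adjusted p 0.0415), and Ifngr1, an interferon gamma receptor chain, by 0.99 (limma adjusted p 0.0325). The fifth was Csf3r, the G-CSF receptor, at 0.94 (limma adjusted p 0.0179). On the deposited scale these 5 were at 0.55 to 0.97, with limma adjusted p of 0.0657 to 0.182. With 1 library left out, their scaled calls were kept only without uninduced replicate 1 (Il10rb, Csf3r), uninduced replicate 2 (Crlf2, Ifngr1, Csf3r) or induced replicate 1 (Crlf2), and the limma adjusted p otherwise reached up to 0.140.

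Of 15 other genes known as Stat5 or Stat3 targets, 14 were tested (median change -0.23), and deposited values gave 1 higher and 4 lower. Bcl3, an NF-kB partner, averaged 4.24 ± 1.17 TPM in uninduced and 11.4 ± 1.41 TPM in induced libraries (SD, n = 3). It rose by 1.26 (limma adjusted p 0.0273), and by 1.60 after scaling (limma adjusted p 0.0173). The growth regulator Myc averaged 59.8 ± 12.9 TPM in uninduced and 21.7 ± 8.79 TPM in induced libraries (SD, n = 3) and fell by 1.46 (limma adjusted p 0.0120). The D-type cyclins, which start the cell cycle, fell too: Ccnd2 by 1.08 (limma adjusted p 0.00537), Ccnd3 by 1.16 (limma adjusted p 0.0252) and Ccnd1 by 1.55 (limma adjusted p 0.0227). After scaling Myc and Ccnd2 were still called (limma adjusted p 0.0408 and 0.0248), and Ccnd1 and Ccnd3 were not (0.0745 and 0.138). Leaving out 1 library at a time, the deposited-scale calls of Ccnd2 were kept throughout, that of Myc was lost without induced replicate 2 (limma adjusted p 0.0558), that of Bcl3 was kept only without uninduced replicate 3 (up to 0.0904 otherwise), and those of Ccnd1 and Ccnd3 only without uninduced replicate 3 or induced replicate 1 (up to 0.0862 and 0.0840 otherwise). On the scaled values Bcl3 was kept only without uninduced replicate 3, Myc only without induced replicate 3 and Ccnd2 in no case (limma adjusted p up to 0.0674, 0.123 and 0.0834). With the proliferation markers lower in every induced library, the part of fewer cycling cells in these falls was not tested. The survival genes Bcl2l1 and Mcl1, Pim2 and Pim3 (relatives of Pim1) and Osm were not called on either scale.

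Immediate early genes were included because Socs3 and Pim1 are also induced within minutes of a stimulus. Of 16 genes 14 were tested, with a median change of -0.57. On the deposited scale limma called 0 higher (also 0 at an unadjusted p under 0.05) and 5 lower: Nr4a1 (log2 change -3.82, limma adjusted p 0.000197), Egr1 (-2.18, limma adjusted p 0.000197), Jun (-0.87, limma adjusted p 0.00507), Fosb (-0.70, limma adjusted p 0.0232) and Fos (-0.67, limma adjusted p 0.0210). After scaling 3 were lower, Nr4a1, Egr1 and Jun, and 1 higher, Dusp1 (0.60, limma adjusted p 0.0447). Summed levels of the list were 2186 to 2704 TPM in uninduced and 1570 to 1735 TPM in induced libraries, lower in every induced library. These sums rest largely on Jun, Fos and Fosb, the highest of the list in uninduced libraries (means of 808, 551 and 227 TPM). The list itself was split: 6 of the 14 lay above the median gene. On the scaled values groups did not overlap for 5 genes higher and 5 lower, against 27.9% of all tested genes. With 1 library left out, Nr4a1 and Egr1 were called each time on both scales and Jun each time on deposited values, while Fosb and Fos were kept only without uninduced or induced replicate 3 (limma adjusted p up to 0.0923 and 0.0904). The scaled call of Jun was kept only without uninduced replicate 1 (up to 0.106), and that of Dusp1 in no case (0.0587 to 0.137).

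**Figure D4:**
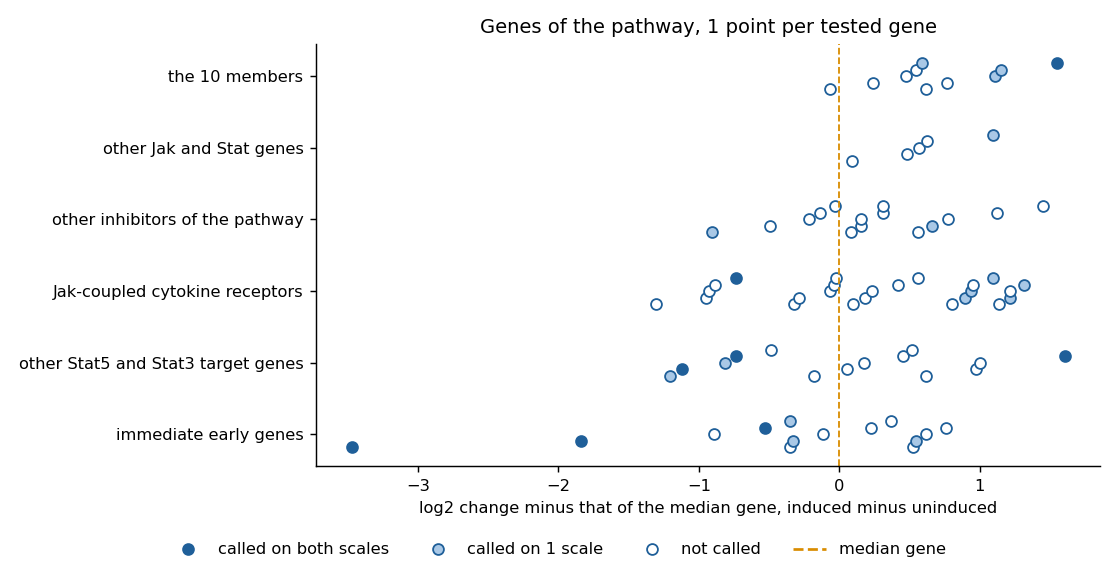
Log2 change minus that of the median tested gene, induced minus uninduced (horizontal axis), for each tested gene of the 10 members and of 5 lists of the pathway; dark points were called on both scales, pale points on 1 and open points on neither. Nr4a1 and Egr1 lie farthest to the left, and Bcl3 and Socs2 are the genes to the right of the median called on both scales.

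Across the 6 libraries the genes whose log2(TPM + 1) followed Socs2 most closely were Gabarapl1 (Pearson's r 0.988), St8sia4 (0.987) and Ostf1 (0.984), out of 14 genes with r of at least 0.95. Gabarapl1 was at 91.1, 69.2 and 94.6 TPM in uninduced and at 127, 112 and 133 TPM in induced libraries, lowest like Socs2 in replicate 2 of each group. These coefficients describe 6 points that share the difference between groups and the scale of each library.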

How the data were processed

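Total RNA was sequenced from sorted stem cells in 6 libraries, 3 uninduced and 3 induced, grouped by library title. The authors deposited 1 table of TPM per gene and library; per the submitters' processing notes bcl2fastq, HISAT2, StringTie and DESeq2 were used with build GRCm38, with no role, version, annotation or filter given in the sources used here. GC content in percent, per the file headers, was not used. Of 60496 rows, 5025 repeated a gene ID and were summed (no member was affected), and columns summed to 999976 to 999993 TPM. TPM keep no depth, so counting error is unknown.

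The 13470 genes averaging 1 TPM or more were tested with limma 3.58.1 in R 4.3.3 on log2(TPM + 1), with a pseudocount of 1 and a variance trend, two-sided, adjusted by Benjamini-Hochberg over all genes; fold changes on this scale understate those of low genes. The step was tested on simulated data. Alternatives were pseudocounts of 0.1 and 5, no minimum, a minimum of 5 TPM, 3 rescalings, no variance trend, a replicate block and each library left out. Added after seeing the data were each omission and the block on median-of-ratios values. Gene models and transcripts were GENCODE M21 (GRCm38) and promoters RefSeq (GRCm38.p6). All 10 members are described. Called genes of each list are named, up to 4 per direction by size of change on either scale, with Fos and Csf3r named beyond that rule; some results are not reported here. The 3 genes most correlated with the called member of smallest p are named. Genes at overlapping loci, genes sharing sequence and genes listed as not called were chosen after their values were seen. Members and lists were chosen with earlier results of these data known.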

Additional observations from a re-analysis of the deposited data

How the results depend on the processing

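The 1549 calls over all genes became 752 without the expression minimum, 814 under median-of-ratios scaling (382 higher, 432 lower, 604 among the 1549), 886 after rescaling to nuclear protein-coding genes, 814 under quantile normalization and 767 without a variance trend, and 611 to 1276 with 1 library left out (331 to 472 on median-of-ratios values). The 1 call among the 10 members became 0 without the minimum and without the trend, 4 under median-of-ratios and under quantile scaling, 5 after rescaling to protein-coding genes, where Cish joined (0.87, limma adjusted p 0.0420), and 0 to 1 with 1 library left out (0 to 3 on median-of-ratios values). The 12 calls among the other pathway genes became 5 without the minimum and 21 after rescaling to protein-coding genes, and 5 to 14 with 1 library left out (2 to 6 on median-of-ratios values). The median change of the members relative to the median gene, 0.61, was 0.40 without the minimum and 0.60 to 0.73 over the omissions. Jak2 reversed from -0.10 to 0.28 under median-of-ratios, 0.33 under protein-coding and 0.29 under quantile scaling, and ranged from -0.21 to 0.019 with 1 library left out (0.23 to 0.36 on median-of-ratios values). Stat5a reversed to 0.017 after protein-coding rescaling and ranged from -0.47 to -0.36 with 1 library left out (-0.057 to 0.016 on median-of-ratios values). Over the omissions on both scales Stat3 ranged from -0.049 (without uninduced replicate 2) to 0.72 and Stat5b from -0.052 (without uninduced replicate 3) to 0.89. Beyond the scalings, fewer samples and the minimum itself, the cause was not tested. A fit with the replicate block called 902 genes, Socs2 among them (limma adjusted p 0.0250), and 456 with the block on median-of-ratios values, where 3 members (Pim1, Socs2, Socs3) and 5 other pathway genes were called and Jak2 stayed at 0.28. Same-numbered libraries share only a number: their deviations from the group means correlated at 0.021, -0.015 and 0.017. Over 30 genes and the 9 planned settings that keep all libraries, 199 gene values kept their call and direction, 32 lost the call, 35 gained it and 4 reversed. Depth is unknown, so a change that was not called cannot be set against counting error.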
